A study of Mus musculus with 8 samples.

Results

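The comparison described here is that of 2 RNA-seq libraries from mouse haematopoietic progenitors transduced with the homeobox gene HOXA9, one labelled Ring1b KO and one labelled Ring1b WT. All transcripts with a normalised read count of at least 20 in the higher of the 2 libraries were taken, which left 10884 of the 19353 RefSeq transcripts in the table (10635 of 17553 gene symbols). The gene lists below and their members were chosen with earlier results of these data known. In taking the transcripts, the filter is the only choice made from the values, and it uses the higher library whichever side that is. The transcripts A930024E05Rik, Tnfrsf25 and Espn lay just inside it with a higher value of 20.8, and Btbd8, C4a and Scd3 just outside with 19.9. In the whole study, bone marrow cells of C57BL/6 mice depleted of lineage-positive cells with a haematopoietic progenitor enrichment kit were infected or, for the cells labelled NT, left untransduced, then treated for 72 h with ethanol or 4-hydroxytamoxifen (OHT). All groups, controls included, are labelled Ring1a-/- and Cdkn2a-/-, and all are named Lin- HSC. The cells carry HOXA9, PML-RARa, MLL-AF9 or nothing (NT), each labelled Ring1b WT or Ring1b KO, with 1 library for each of these 8 groups. The promoter that drives the OHT-inducible deletion, the number of mice behind a culture, their age and the species of the HOXA9 sequence are not stated, and OHT and the loss of Ring1b cannot be told apart.

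Ring1b, the product of Rnf2, and its relative Ring1a, the product of Ring1, can each serve as the catalytic subunit of PRC1, a Polycomb complex that attaches ubiquitin to histone H2A and helps to keep developmental genes silent. HOXA9 is a transcription factor of haematopoietic stem and progenitor cells that falls as they mature, and forced HOXA9 holds myeloid progenitors in a dividing, immature state, usually with help from its partner MEIS1. Cdkn2a is itself a Polycomb target whose products stop cell division, and every group is labelled as lacking it. The comparison asks which transcripts differ when the remaining PRC1 ligase is deleted in HOXA9-transduced cells.

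The labels were first checked on their own genes. Rnf2 (NM_011277) stood at 896 in the WT-labelled library and 856 in the KO-labelled library, a ratio of 0.956 (0.875 to 1.04), where the brackets, here and below, give the exact Clopper-Pearson 95% counting interval of the ratio of KO-labelled over WT-labelled value. The transcript of the deleted gene was thus not lower by more than counting error. A count over the whole transcript keeps reads from any part that is not deleted, so it does not check the deletion, and the 2 libraries are named by their labels throughout. Ring1 (NM_009066), labelled as knocked out in both, stood at 191 in the WT-labelled library and 47.1 in the KO-labelled library, with a ratio of 0.246 (0.179 to 0.334). The Cdkn2a transcripts NM_001040654 and NM_009877, also labelled as knocked out, stood at 25.7 and 67.2 in the WT-labelled and at 25.3 and 36.2 in the KO-labelled library. Hoxa9 (NM_010456) stood at 249.9 in the WT-labelled library and 252 in the KO-labelled library, a ratio of 1.01 (0.855 to 1.19), against 20.7 and 6.23 in the NT libraries. Both HOXA9 libraries therefore held more Hoxa9 reads than the untransduced cells, and the 2 HOXA9 libraries did not differ beyond counting error. Meis1 stayed under the filter, at 8.30 and 3.62, which is 10 and 4 reads.

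Every deposited value is a whole multiple of the lowest value of its column, so reads could be recovered, and the libraries held 6657911 (WT-labelled) and 6641843 (KO-labelled). The lowest entry is 1 read and no entry is 0, so that an entry of 1 read may stand for 0 or 1. With 1 library a group there is no replicate, no standard error and no p-value within the comparison, and the intervals cover counting error only. With 100 reads in each library a ratio of 1.09 has an interval of 0.818 to 1.45, and with 10 reads one of 0.407 to 2.92. At the other end, 2046 transcripts of known length exceeded 0.5 reads per base in their deepest library. Their ratios may be compressed, so a ratio near 1 there does not show that a gene is unchanged. A transcript was called higher or lower at a difference of at least 2-fold on the log2(value + 1) scale. In this population labelled as lineage-negative haematopoietic cells, 10 of 13 progenitor markers passed the filter. Kit, the receptor that usually defines such cells, stood at only 2.49 and 2.71 (3 reads each), and Runx1 was not analysed here. Monocyte and macrophage markers were already present in the WT-labelled library, among them Csf1r at 826 and Adgre1, the F4/80 antigen, at 1186.

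Of the 10884 transcripts, 984 (9.04%) were at least 2-fold higher in the KO-labelled library, 664 (6.1%) were at least 2-fold lower, and 9236 lay within 2-fold. The median log2 ratio over all of them was 0.01. The high side reached further than the low side: 383 transcripts were at least 4-fold higher and 111 (1.02%) at least 4-fold lower, 84 (0.772%) and 12 at least 16-fold, and 39 and 2 at least 32-fold. The transcripts on the high side had a median value of 39.4 in the WT-labelled and 209 in the KO-labelled library, and those on the low side of 98.4 and 33.5. Of the higher transcripts 383 (38.9%) stood under 20 in the WT-labelled library, and of the lower ones 259 (39.0%) stood under 20 in the KO-labelled library. The higher transcripts took 2.91% of the normalised total in the WT-labelled library and 9.01% in the KO-labelled one, and the lower transcripts 2.78% and 0.976%. All 984 and all 664 had counting intervals that leave out 1. The filter and the 2-fold rule together bring this about, so it adds no support to the calls. Scaling both libraries to the same total of recovered reads, in place of the authors' scaling, moved the median ratio of all transcripts by over 0.1 to -0.12, and the calls became 833 higher and 831 lower, so that 50.1% in place of 59.7% of the calls were on the high side.

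**Figure D1:**
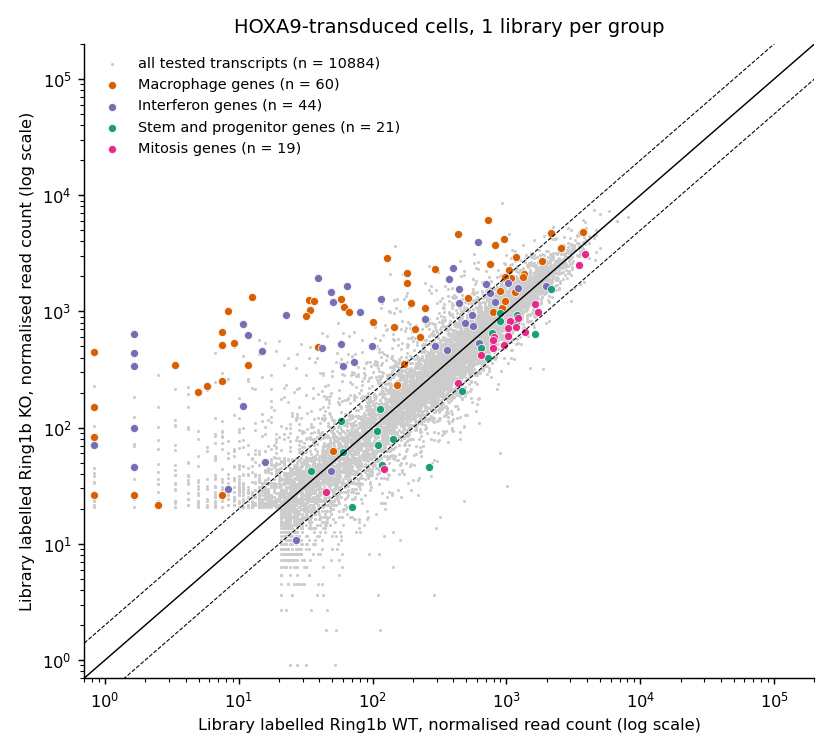
Normalised read count of each tested transcript in the library labelled Ring1b WT (horizontal, log scale) against the library labelled Ring1b KO (vertical, log scale), with 1 library per group. The solid line marks equal values and the dashed lines a 2-fold difference. Macrophage genes (n = 60) and interferon genes (n = 44) lie mostly above the upper dashed line, and the 19 mitosis genes lie below the solid line, most of them inside the lower dashed line.

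Interferon genes were among the genes furthest from equality. Type I interferons are cytokines of the antiviral response that act through the receptor chains Ifnar1 and Ifnar2 and on through STAT transcription factors and Irf9 to a DNA element, the interferon-stimulated response element (ISRE), whose core pairs GAAA repeats. Of 44 tested interferon genes 31 were at least 2-fold higher, 1 was lower and 12 lay within 2-fold, beside 9.04% of all tested transcripts higher and 6.1% lower. Their median log2 ratio was 2.42, against 0.01 over all transcripts. The list, like every list here, was chosen with earlier results of these data known, so its count describes the 2 libraries and is no independent support. Over the same 44 genes the median was 2.84 in MLL-AF9, 1.62 in PML-RARa and 0.94 in NT.

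Promoter stretches of 5 of the higher interferon effectors in which that element was found are shown, since they let its letters be read beside the values. Of 18 higher effector genes placed in RefSeq, 14 have an entry in the RefSeq promoter table (build GRCm38.p6), with 16 windows of 300 bases that run from 250 bases before to 50 after a start site. The motif searched on both strands was a pair of GAAA repeats with any 2 bases between them. It was in 8 of these 16 windows, in 7.85% of the windows of all higher genes and in 17.9% of those of genes at least 16-fold higher. It was in 3.35% of the windows of lower genes, in 2.76% of those of genes within 2-fold and in 3.44% of all 32851 windows in the table. In the stretches below, written 5′ to 3′ on the strand of the gene, capitals mark a match to this motif or to its reverse complement, a pair of TTTC repeats with any 2 bases between them.
Ifit3 (chr19:34583338-34583451, plus strand): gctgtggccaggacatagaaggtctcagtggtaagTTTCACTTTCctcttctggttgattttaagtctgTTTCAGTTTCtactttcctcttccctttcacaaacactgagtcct
Ifit1 (chr19:34640750-34640848, plus strand): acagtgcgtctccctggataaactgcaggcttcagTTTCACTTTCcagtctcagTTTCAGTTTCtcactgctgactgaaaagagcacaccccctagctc
Rsad2 (chr12:26456528-26456607, minus strand): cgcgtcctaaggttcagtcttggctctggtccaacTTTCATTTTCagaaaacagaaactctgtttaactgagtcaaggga
Isg15 (chr4:156200840-156200931, minus strand): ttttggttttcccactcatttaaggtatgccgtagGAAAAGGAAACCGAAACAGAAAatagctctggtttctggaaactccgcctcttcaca
Oas3 (chr5:120777690-120777769, minus strand): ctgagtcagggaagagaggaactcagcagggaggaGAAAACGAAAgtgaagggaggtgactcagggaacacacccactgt
The first match begins 156 bases before the start site in Ifit3, 104 in Ifit1, 120 in Rsad2, 78 in Isg15 and 75 in Oas3. Ifit3 and Ifit1 each hold 2 separate matches, Isg15 holds 3 that overlap, and Rsad2 and Oas3 hold 1. Oas1a and Trim30a also hold matches. In the windows of Oasl1, Oasl2, Ifit2, Ifi44, Cmpk2, Xaf1 and Herc6 these letters were not found. The median ratio of observed over expected CpG dinucleotides in these windows was 0.58 for higher genes, 0.61 for lower genes, 0.78 for genes within 2-fold, 0.27 for the higher interferon effectors and 0.38 over all windows of the table. A match is a description of the sequence, and binding of a factor was not measured.

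Interferon effectors, the proteins that act against viruses inside the cell, included 19 of 24 tested members at least 2-fold higher and none lower, with a median log2 ratio of 3.56. Rtp4, a chaperone-like antiviral protein, had a value of 1.66 in the WT-labelled library and 634 in the KO-labelled library, a ratio of 382 (105 to 3161). Ifit3, whose promoter is printed above and whose product binds viral RNA complexes, stood at 1.66 in the WT-labelled library and 437 in the KO-labelled library, and Ifit1, which binds RNA without a self cap, at 10.8 and 785 in the same order. Each of these 3 genes had at most 13 reads in the WT-labelled library. Oasl1, a relative of the oligoadenylate synthetases, stood at 1.66 and 338, with a ratio of 203 (55.9 to 1685). Rsad2, or viperin, a radical enzyme that blocks viral replication, stood at 39.0 and 1923, and its WT-labelled value of 47 reads gives a narrower interval, 49.3 (36.9 to 67.3). Isg15, a ubiquitin-like modifier, stood at 41.5 and 489 and Usp18, the protease that removes it, at 11.6 and 632. Parp14, the higher effector with the most reads in the KO-labelled library, stood at 613 and 3936. The 5 effectors within 2-fold were Isg20, Bst2, Eif2ak2, Ifitm3 and Samd9l, with ratios from 0.868 to 1.91.

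Of 11 tested sensors of foreign nucleic acid 8 were higher and none lower. Tlr7, the endosomal receptor for single-stranded RNA, stood at 22.4 in the WT-labelled library and 932 in the KO-labelled library, a ratio of 41.6 (28.4 to 63.4). Tlr3, its counterpart for double-stranded RNA, stood at 1.66 and 99.5, which is 2 and 110 reads, and Zbp1, a sensor of Z-form nucleic acid, at 58.1 and 528. The cytoplasmic RNA sensors Ddx58 (RIG-I, 442 and 1547), Ifih1 (MDA5, 15.8 and 50.7) and Dhx58 (441 and 1172) were higher by smaller ratios, between 2.66 and 3.50. The DNA sensor genes Mb21d1 (cGAS, ratio 1.29, interval 1.13 to 1.46), Tmem173 (STING, 1.48, interval 1.36 to 1.61) and Aim2 (0.863, interval 0.774 to 0.962) lay within 2-fold. Upstream, none of the 4 tested receptor chains passed 2-fold: Ifnar1 had a ratio of 1.73 (1.61 to 1.86), Ifnar2 1.74 (1.52 to 2.0), Ifngr2 1.69 (1.54 to 1.87) and Ifngr1 0.846 (0.795 to 0.899). The ligand genes Ifnb1 and Ifna4 stayed under the filter in both libraries. Of the transcription factors, 2 of 3 tested members were higher, among them Stat2 at 698 and 1733, while Irf1 stood at 26.6 and 10.9 and was the single member on the low side, with a ratio of 0.409 (0.192 to 0.815). Irf7 was not analysed here. The chemokines Cxcl10 (14.9 and 457) and Ccl5 (10.8 and 154), which attract lymphocytes, were both higher.

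Macrophage genes made up the other large group on the high side. Of 60 tested genes 46 were at least 2-fold higher, 14 lay within 2-fold and none was lower, where 9.04% of all tested transcripts were higher and 6.1% lower. Their median log2 ratio was 2.85, beside 1.63 in NT, 1.8 in PML-RARa and 4.48 in MLL-AF9. Among receptors, 12 of 15 were higher. Siglec1, the sialic acid receptor CD169 of tissue macrophages, stood at 8.30 in the WT-labelled library and 1012 in the KO-labelled library, a ratio of 122 (66.0 to 255). Mertk, with which macrophages take up dying cells, stood at 33.2 and 1265, and the mannose receptor Mrc1 at 729.8 and 6070. Csf1r, the receptor for the macrophage growth factor, stood at 826 and 3763, with a ratio of 4.55 (4.25 to 4.89). Cd14 (1.24, interval 1.14 to 1.35), Tlr4 (1.55, interval 1.45 to 1.65) and Ccr2, the chemokine receptor of blood monocytes (1.38, interval 1.31 to 1.44), had ratios within 2-fold.

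The complement component C1q is built from 3 chains whose genes lie next to each other, and all 3 were higher. C1qa stood at 7.47 in the WT-labelled library and 659 in the KO-labelled library, C1qb at 36.5 and 1233 and C1qc at 34.0 and 1028, with ratios from 30.2 to 88.2. The central component C3 and Cfp, or properdin, lay within 2-fold at ratios of 1.28 (1.23 to 1.34) and 1.48 (1.39 to 1.58). Among transcription factors, Maf, which drives macrophage maturation, stood at 179 and 1741, with a ratio of 9.71 (8.43 to 11.2). Egr2 stood at 248 and 1066, and Spic, known from macrophages that clear red cells, at 0.830 and 26.2. The earlier myeloid factors Spi1 (PU.1, 1.27, interval 1.18 to 1.36), Cebpb (1.16, interval 1.06 to 1.26) and Irf8 (1.70, interval 1.57 to 1.83) had ratios under 2-fold.

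The CC and CXC chemokines of the macrophage list were higher in 10 of 12 tested genes. Ccl8 stood at 0.830 in the WT-labelled library and 447 in the KO-labelled library, that is 1 read, the lowest entry of the table, and 494 reads, a ratio of 538 (96.2 to 21310). Ccl12 stood at 3.32 and 348, Ccl7 at 31.5 and 914, Ccl2 at 66.4 and 982 and the eosinophil-attracting Ccl24 at 7.47 and 518. All 10 tested genes of lipid handling were higher. Cd5l, a macrophage protein of lipid and cell survival control, stood at 0.830 and 152, and the fatty acid carrier Fabp4 at 9.13 and 532. The cholesterol exporter Abca1 stood at 129 and 2897, with a ratio of 22.5 (19.2 to 26.6), the lipase Lpl at 431 and 4601 and Ch25h, which makes 25-hydroxycholesterol, at 5.81 and 226. Among proteases, Ctsk, the collagenase of osteoclasts, stood at 7.47 and 254, Mmp12 at 292 and 2338 and Mmp13 at 179 and 2137. Lyz2, the lysozyme of all myeloid cells, lay within 2-fold at 981 and 1234. Atp6v0d2, a proton pump subunit that takes part in osteoclast fusion, had 12.5 in the WT-labelled library and 1325 in the KO-labelled library, a ratio of 106 (64.3 to 191), and Tnfrsf11a, or RANK, 4.98 and 203. In bulk RNA, more cells of a type and more RNA per cell cannot be told apart.

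The remaining large differences on the high side were Pdgfc, a growth factor (0.830 and 229.8, ratio 277, interval 49.2 to 10978), Qpct, an enzyme that cyclises glutamine at protein ends (2.49 and 285, ratio 114, interval 38.8 to 558), and Ms4a6b, of the membrane-spanning Ms4a family (6.64 and 438, ratio 65.9, interval 33.2 to 154). For Ms4a6b and for Ccl8 and Ccl12 near-identical relatives exist, among which reads may be split. With Rtp4, Ccl8, Ifit3, Siglec1, Atp6v0d2, Oasl1, C1qa, Ifit1, Ccl12, Rsad2, Ccl24 and Cd5l these are the 15 genes whose counting interval stayed furthest above 1.

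**Figure D2:**
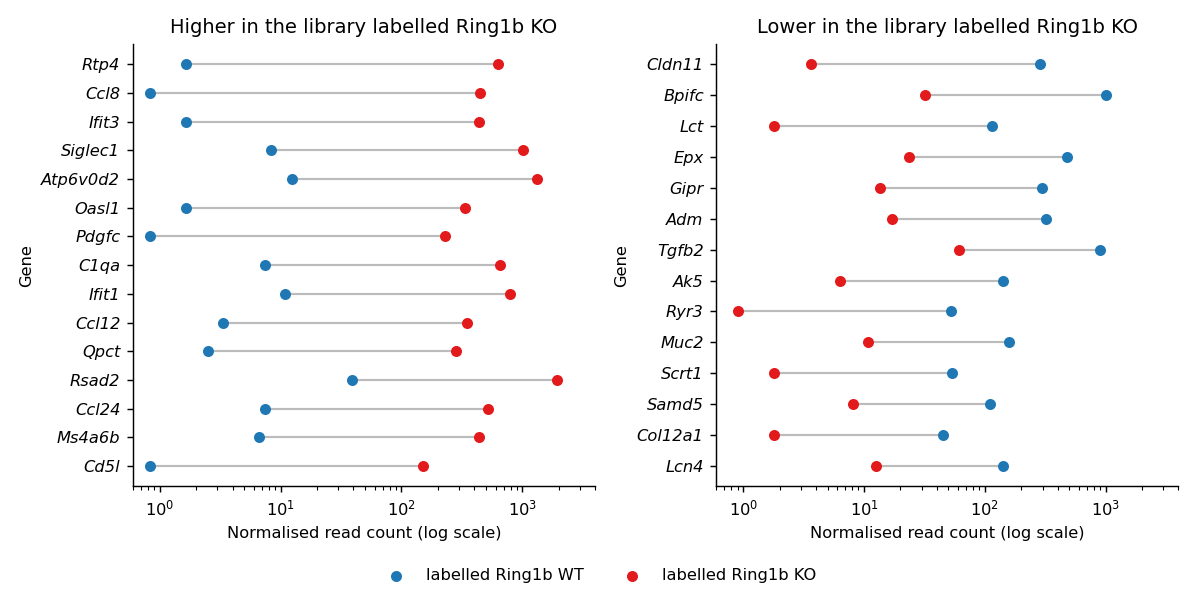
Normalised read count (horizontal, log scale) of the 15 genes whose counting interval lies furthest above 1 (left) and of 14 of the 15 furthest below 1 (right), in the library labelled Ring1b WT (blue) and the library labelled Ring1b KO (red), with 1 library per group. On the left all WT-labelled values are at most 39.0 and all KO-labelled values at least 152, while on the right the KO-labelled values reach at most 60.6.

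Antigen presentation split by class. MHC class II and co-stimulation genes, active in macrophages and dendritic cells, were higher in 7 of 10 tested members, beside 9.04% of all tested transcripts. The class II chains H2-Aa (17.4 and 284, ratio 16.3, interval 10.5 to 26.7) and H2-Eb1 (6.64 and 120.4, ratio 18.1, interval 8.93 to 42.8) and their chaperone Cd74 (9.96 and 67.0) were among them, and Itgax, the integrin CD11c, stood at 37.4 and 368. H2-Ab1, H2-DMa and H2-DMb1 lay within 2-fold. All 11 tested genes of class I presentation lay within 2-fold, beside 84.9% of all tested transcripts. The chain H2-K1 had a ratio of 1.06 (1.0 to 1.12) and H2-D1 one of 1.09 (0.995 to 1.19). The median log2 ratio was 2.45 for the class II group and 0.22 for the class I group. The class I group also had the higher level, with a median value of 875 in the WT-labelled library against 50.6 for class II. Ratios of deeply covered transcripts may be compressed, and the part of coverage in this split was not tested. Lysosome genes had a median log2 ratio of 0.50 and 1 of 18 tested members was at least 2-fold higher, beside 9.04% of all tested transcripts. Every tested lysosome gene had a ratio above 1. Of 11 tested cytokine receptors 3 were higher, beside 9.04% of all tested transcripts: Csf1r, Il7r (14.1 and 426, ratio 30.2, interval 18.7 to 52.3) and Il6ra (394 and 1171). The receptor for erythropoietin, Epor, had a ratio of 0.510 (0.358 to 0.717) and moved past 2-fold, to a log2 ratio of -1.07, when the libraries were scaled to equal totals.

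On the low side the largest differences were in genes of several kinds. Cldn11, a tight junction protein, stood at 286 in the WT-labelled library and 3.62 in the KO-labelled library, a ratio of 0.0127 (0.00343 to 0.0327). Bpifc, of the family of bacterial permeability proteins, stood at 1006 and 31.7, and Lct, or lactase, at 114 and 1.81. Epx, the peroxidase of eosinophil granules, stood at 482 and 23.5, with a ratio of 0.0489 (0.0316 to 0.0723). Secreted factors and their receptors formed part of this group. Tgfb2, a ligand of the TGF-beta pathway, went from 897 to 60.6, a ratio of 0.0676 (0.0520 to 0.0866). Adm, or adrenomedullin, a vasodilator peptide, stood at 318 and 17.2, and Gipr, the receptor of an incretin hormone, at 299.7 and 13.6. Among the rest of the 15 were Ak5, an adenylate kinase (142 and 6.33), the calcium channel Ryr3 (52.3 and 0.905), the mucin Muc2 (159 and 10.9), the repressor Scrt1 (53.1 and 1.81), Samd5 (111 and 8.14), the collagen Col12a1 (44.8 and 1.81) and Lcn4, a lipocalin (142 and 12.7). In these 15 genes the WT-labelled library held between 44.8 and 1006.

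Stem and progenitor genes leaned to the low side. Of 21 tested members 5 were at least 2-fold lower and none higher, beside 6.1% lower among all transcripts, and the median log2 ratio was -0.44. All 5 are transcription factors. Mycn, a MYC family driver of growth, stood at 265 in the WT-labelled library and 46.2 in the KO-labelled library, a ratio of 0.174 (0.127 to 0.235). Gfi1, a repressor of progenitors and neutrophil precursors, stood at 69.7 and 20.8, Ikzf2 at 1636 and 642, Myb, which keeps progenitors dividing, at 117 and 48.0, and Erg at 467 and 207. Tal1 (0.921, interval 0.843 to 1.01), Fli1 (1.09, interval 1.0 to 1.19) and the surface antigen Cd34 (1.03, interval 0.728 to 1.45) were near equal. The sum of the 12 progenitor markers in the table was 6203 in the WT-labelled and 4485 in the KO-labelled library, with 3 of 10 tested markers lower and none higher. The sum of the 12 monocyte and macrophage markers was 5204 and 21842, with 10 of 12 higher, and Marco, at 0.830 and 83.3, was the marker nearest to 0 in the WT-labelled library. The part of cell composition in these differences was not tested.

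The programme associated with HOXA9 and MEIS1 gave calls on both sides. Of 22 tested members 5 were higher and 4 lower, beside 9.04% and 6.1% of all tested transcripts. Their median log2 ratio was 0.02. Mef2c (7.47 and 44.3), Igf1 (13.3 and 95.9), Camk2d (10.8 and 32.6) and Id2 (616 and 1299) were among the higher. Mycn, Myb and Erg were lower, as was Trib2, a pseudokinase that degrades CEBPA, which stood at 204 and 48.0, a ratio of 0.235 (0.171 to 0.317). Bcl2 (0.579, interval 0.516 to 0.649), Sox4 (0.543, interval 0.483 to 0.610) and Flt3 (0.652, interval 0.487 to 0.869) had ratios below 1 but within 2-fold. Hox genes, which PRC1 is known to repress, had 13 tested members. Of these 2 were higher, among them Hoxb7 (10.8 and 22.6), and none lower, beside 9.04% and 6.1% of all tested transcripts. Both calls lie at the 2-fold line and ended with a pseudocount of 10 or with scaling to equal totals, and that of Hoxb7 also with centred ratios. Of 7 fetal programme genes, Lin28a, which blocks let-7 maturation (238 and 76.0), and the chromatin protein Hmga2 (468 and 176) were lower, and Igf2bp2, an RNA-binding protein, was higher (46.5 and 233).

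Developmental transcription factors outside blood, the classical targets of Polycomb repression, gave equal numbers on both sides. Of 68 listed genes 25 passed the filter, of which 6 were higher and 6 lower, beside 9.04% and 6.1% of all tested transcripts. The median log2 ratio of the 25 was -0.35. Foxc1 (4.15 and 33.5), Sox21 (9.13 and 57.0), Pitx1 (71.4 and 389, ratio 5.45, interval 4.31 to 6.95), Lhx2 (28.2 and 95.02), Tbx2 (8.30 and 28.1) and Foxl2 (28.2 and 70.6) were higher. Pax8 (49.0 and 7.24), Sox7 (49.8 and 11.8), Zic1 (349 and 129, ratio 0.371, interval 0.305 to 0.450), Nkx6-1 (62.3 and 24.4), Dlx1 (54.8 and 24.4) and Dlx2 (29.9 and 13.6) were lower. The same 25 genes had median log2 ratios of 2.10 in NT, -1.25 in PML-RARa and 2.36 in MLL-AF9. Zic1 had log2 ratios of -1.42 here and of 1.71 in NT, -2.75 in PML-RARa and 3.26 in MLL-AF9, and Zic2 of -0.27 and 5.50 in NT, -1.25 in PML-RARa and 3.96 in MLL-AF9. With no filter on low values, which brings in the genes near the lowest entry, the median of the list here was 0.06.

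Polycomb subunit genes other than Ring1 mostly lay within 2-fold. Of 18 tested PRC1 genes none was higher and 3 were lower, beside 9.04% and 6.1% of all tested transcripts. The lower ones were Ring1, labelled as knocked out in both libraries, Cbx7, a reader of histone H3 methylation (452 and 209.9, ratio 0.464, interval 0.396 to 0.542), and Yaf2 (20.8 and 9.05). The call of Yaf2 ended with a pseudocount of 10. Bmi1, the PRC1 subunit best known from stem cells, had a ratio of 1.47 (1.34 to 1.61). All 10 tested PRC2 genes lay within 2-fold, beside 84.9% of all tested transcripts. Eed was at 1.12 (0.997 to 1.27), Suz12 at 0.797 (0.540 to 1.17) and the accessory subunits Phf19 at 0.600 (0.522 to 0.690) and Mtf2 at 0.591 (0.372 to 0.924). Mtf2 passed 2-fold, at a log2 ratio of -1.03, when its transcripts were summed.

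Genes of other blood lineages did not follow 1 pattern. Neutrophil genes had 3 members higher and 4 lower of 21 tested, beside 9.04% and 6.1% of all tested transcripts. Their median log2 ratio was -0.30. The primary granule genes Mpo (3511 and 3028), Elane (1334 and 1096), Prtn3 (1376 and 1117), Ctsg and Ms4a3, made at the promyelocyte stage, all lay within 2-fold. Among genes of later granules, Camp (395 and 94.1, ratio 0.238, interval 0.191 to 0.295), Ngp (1406 and 644), Retnlg (132 and 54.3) and Padi4 (1606 and 738) were lower. The 3 higher genes, Fpr1 (7.47 and 83.3), Mmp9 (263 and 1519) and Mmp8, are shared with activated macrophages. Without transcripts over 0.5 reads per base, whose ratios may be compressed, the median of this list was 1.28.

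Eosinophil genes were low in Epx, named above, and in Prg3 (52.3 and 24.4), while the eotaxin receptor Ccr3 was higher (9.96 and 33.5). Of 10 tested mast cell and basophil genes 5 were higher and none lower, beside 9.04% and 6.1% of all tested transcripts. The 5 were Mitf (7.47 and 27.1), Cma1 (83.9 and 233), Mcpt4 (9.13 and 21.7), Tpsb2 (279.8 and 625) and Fcer1a (33.2 and 69.7). Cpa3, their most abundant gene, was near equal at 1405 and 1336. Of 10 megakaryocyte genes 5 were higher, beside 9.04% of all tested transcripts. They were the platelet chemokines Ppbp (118 and 1184) and Pf4 (128 and 708), Gp9 (4.15 and 35.3), Vwf (112 and 446) and Selp (62.3 and 172), whereas Itga2b, the integrin that marks the lineage, was not higher (857 and 808). Erythroid Klf1 (27.4 and 9.05) was lower, as were Nkg7 (223 and 37.1) and Gata3 (98.8 and 44.3) of the T and NK cell list. The defining T cell markers Cd3e, Cd3g and Lck were at the lowest entry of 1 read in both libraries. Blnk, a B cell adaptor also found in macrophages, was higher (0.830 and 144, ratio 173, interval 30.7 to 6888), while Ebf1, a B cell factor, was at the lowest entry in both libraries. Of stromal and endothelial genes Kdr was higher (4.15 and 196) and Epcam lower (354 and 129), with Col3a1, Cxcl12, Cdh5 and Tek at 1 to 3 reads. Summed markers were 10178 and 7709 for neutrophils, 1058 and 399.97 for eosinophils, 3502 and 4059 for mast cells and basophils, 1322 and 3277 for megakaryocytes, 139 and 63.3 for erythroid cells, 227 and 536 for dendritic cells, 339 and 90.5 for T and NK cells, 147 and 122 for B cells, and 574 and 546 for stromal, endothelial and epithelial cells. The higher dendritic sum came from Itgax (37.4 and 368), which is not confined to dendritic cells. The other 2 dendritic markers past the filter, Batf3 (50.6 and 63.3) and Flt3 (109.6 and 71.5), lay within 2-fold. The higher megakaryocyte sum came mostly from Ppbp, Pf4 and Vwf. Of the other tested markers of that lineage, Gp9 and Gp5 (38.2 and 62.4) had ratios above 1, and Itga2b and Gp1ba (63.1 and 32.6) ratios below 1. The T and NK sum came mostly from Nkg7 and Gata3.

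**Figure D3:**
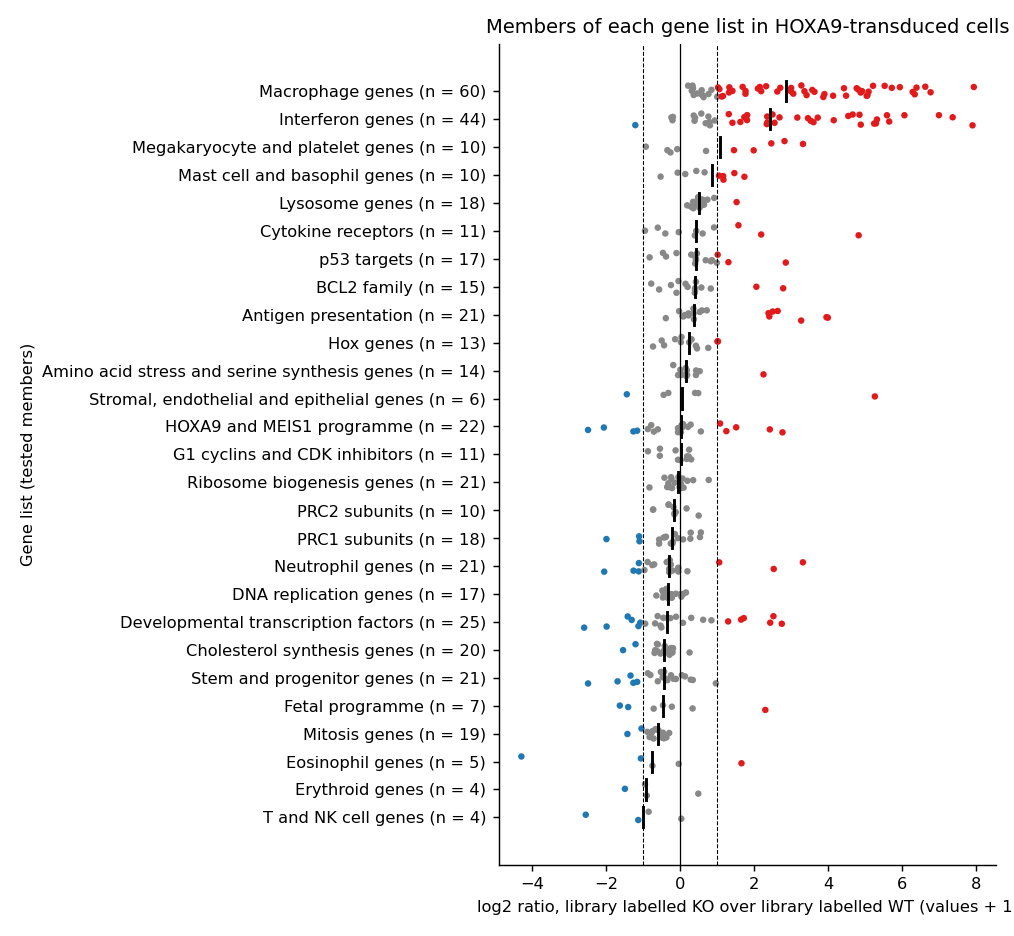
Log2 ratio of the library labelled Ring1b KO over the library labelled Ring1b WT (horizontal, values + 1) for each tested member of the gene lists with at least 4 such members (rows, ordered by median). Points are genes, red at least 2-fold higher, blue at least 2-fold lower and grey within 2-fold (dashed lines), spread vertically for legibility, and black bars are list medians. Macrophage and interferon genes have the highest medians, 2.85 and 2.42, and most other lists centre near 0.

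Genes of cell division were lower by less than 2-fold. Of 19 tested mitosis genes all 19 had ratios below 1, but 2 passed 2-fold: Birc5 (survivin), a subunit of the chromosomal passenger complex, stood at 121 in the WT-labelled library and 44.3 in the KO-labelled library, a ratio of 0.366 (0.259 to 0.509), and the centromere protein Cenpf at 1381 and 667, a ratio of 0.483 (0.442 to 0.527). The median log2 ratio of the 19 was -0.60. Over all tested transcripts 6.1% were at least 2-fold lower. Mki67, the marker of cycling cells, stood at 3850 and 3125, with a ratio of 0.812 (0.776 to 0.848), Top2a, the topoisomerase of mitotic chromosomes, at 3462 and 2531, and the cyclin-dependent kinase Cdk1 at 1027 and 717. Aurkb, a kinase that corrects chromosome attachment, had a log2 ratio of -0.89 and passed 2-fold, at -1.01, with scaling to equal totals. These intervals leave out 1, so the lower values exceed counting error, and replicate error could not be measured.

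DNA replication genes had a median log2 ratio of -0.33, and none of 17 tested members was called, beside 15.1% of all tested transcripts. Mcm2 of the replicative helicase had a ratio of 0.853 (0.795 to 0.915), Mcm6 0.731 (0.688 to 0.777) and Rrm2, which makes deoxynucleotides, 0.792 (0.736 to 0.853). Pcna, the sliding clamp, was at 1.06 (0.979 to 1.14) and Ccne1, the cyclin of S phase entry, at 1.11 (0.956 to 1.29), both near equal. Ribosome biogenesis genes had a median of -0.05, with 0 of 21 called, beside the same 15.1%. Polr1a, the large subunit of RNA polymerase I, had a ratio of 1.01 (0.939 to 1.09), nucleolin (Ncl) 0.986 (0.944 to 1.03) and Nop2 0.999 (0.921 to 1.08), while Heatr1 was at 1.70 (1.6 to 1.82) and Polr1b at 0.742 (0.675 to 0.817). The 11 tested G1 cyclins and kinase inhibitors also held no call, again beside 15.1% of all tested transcripts. Ccnd1 was at 1.18 (1.08 to 1.29), Ccnd2 at 1.17 (1.12 to 1.22), Cdkn1a at 1.23 (0.862 to 1.76) and Cdkn1b at 0.682 (0.603 to 0.770).

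In the other contexts the same genes stood lower. All 19 mitosis genes were at least 2-fold lower in the KO-labelled library of NT, of PML-RARa and of MLL-AF9, with medians of -1.88, -1.60 and -1.55, against 2 of 19 here. The background of calls at least 2-fold lower among the 10884 transcripts was 8.43% in NT, 13.1% in PML-RARa, 14.5% in MLL-AF9 and 6.1% here. Mki67 had log2 ratios of -0.30 here and of -1.82 in NT, -1.23 in PML-RARa and -1.33 in MLL-AF9. For all 19 mitosis genes and all 17 replication genes the ratio here was above that in each of the other 3 contexts, as it was for 18 of 21 ribosome biogenesis genes, whose medians elsewhere were -0.64 (NT), -0.57 (PML-RARa) and -0.64 (MLL-AF9). The HOXA9 pair was also the pair with the most equal depth: the KO-labelled library held 6641843 reads against 6657911, whereas the KO-labelled libraries of the others held 5699203 against 6998223 (NT), 4886703 against 5992257 (PML-RARa) and 4226751 against 5342836 (MLL-AF9). The part of depth was not tested.

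**Figure D4:**
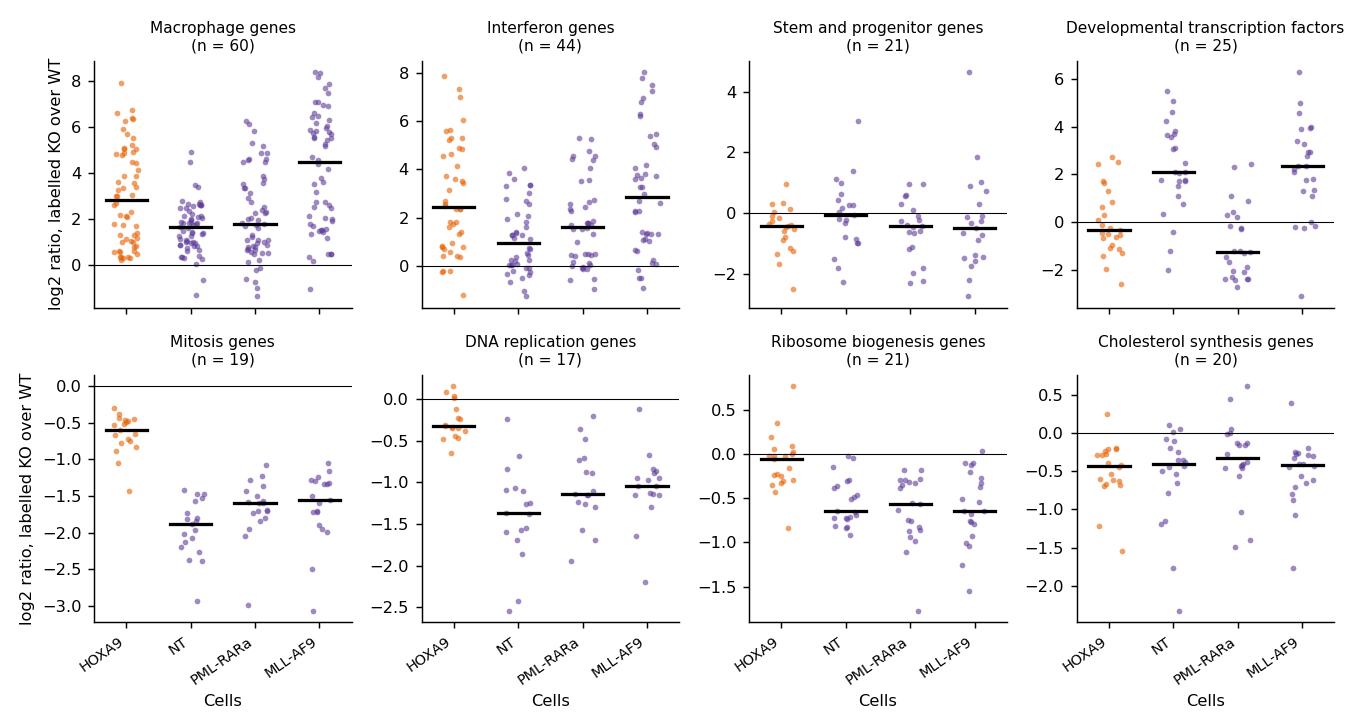
Log2 ratio of the library labelled Ring1b KO over that labelled Ring1b WT (vertical, values + 1; scales differ between panels) in HOXA9-transduced cells (orange) and in the other 3 contexts (purple) for the members of 8 gene lists tested in the HOXA9 pair. Points are genes, spread sideways, black bars are medians, and each context is 1 library against 1. The mitosis genes have medians of -0.60 in HOXA9 and -1.88, -1.60 and -1.55 in NT, PML-RARa and MLL-AF9.

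That difference was tested with limma on the 4 ratios of each transcript, HOXA9 against the mean of the other 3, over the 10599 transcripts whose values averaged 20 or more, assuming that the single HOXA9 ratio varies like the others. No transcript passed an adjusted p of 0.05 in either direction (0% called, smallest limma adjusted p = 0.9998), and 244 (2.3%) higher and 100 (0.943%) lower had an unadjusted p under 0.05. edgeR on recovered reads also called 0 (139 and 145 at an unadjusted p under 0.05). DESeq2 called 1 on the low side (96 and 117 at an unadjusted p under 0.05), which neither limma nor edgeR called. Nothing is therefore shown to be particular to HOXA9-transduced cells. Of the 19 mitosis genes 16 had an unadjusted limma p under 0.05, beside 3.25% of all transcripts in that test. Birc5 had a difference of 1.57 ± 0.25 (log2, SE), Bub1b of 1.19 ± 0.28 and Top2a of 0.94 ± 0.26, all with an adjusted p of 0.9998. These genes share libraries, and their count has no test here. Of 40 interferon genes in the same test 34 had a difference above 0, with a median of 0.66, and 0 had an unadjusted p under 0.05. Of 22 developmental transcription factors 5 had a difference above 0, with a median of -1.44, and again 0 had such a p, against a median of 0.10 over all transcripts.

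The 10 transcripts with the smallest p in each direction are given as not passing. On the high side these were Slc9a7, an ion exchanger (difference 3.14 ± 0.34), the inflammasome sensor Nlrp1b (2.40 ± 0.31), Tex15 (2.43 ± 0.32), the scaffold Akap12 (2.45 ± 0.33), Fcrls (2.62 ± 0.36), P2rx3 (3.49 ± 0.49), Tln2 (2.42 ± 0.35), Pdgfc (3.94 ± 0.57), Lipn (3.03 ± 0.46) and Birc5. Akap12 stood at 9.96 and 76.0 here and had log2 ratios of 0.50 in NT, 0.53 in PML-RARa and 0.06 in MLL-AF9. On the low side, among others, were Ryr3 (-5.84 ± 0.67), the potassium channel Kcnk5 (-2.05 ± 0.25), Fhl2, a LIM domain cofactor (-2.52 ± 0.32), Gimap5 (-3.05 ± 0.42), Rab40b (-2.97 ± 0.43), Lrrc16a (-2.42 ± 0.36), Acsbg1 (-2.80 ± 0.43), Klk8 (-2.42 ± 0.40) and Olfr920 (-1.78 ± 0.30). Kcnk5 stood at 289 and 91.4 here, with a log2 ratio of -1.65, against 0.40, 0.40 and 0.41 in NT, PML-RARa and MLL-AF9.

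Calls of the HOXA9 pair overlapped those of the other contexts, which have control libraries of their own. Of the 984 higher transcripts 777 (79%) were also at least 2-fold higher in MLL-AF9, which is 48.8% of the 1592 (14.6% of all) higher there. The overlap was 524 with NT (53.3% and 39.3% of each list, where 12.3% of all were higher) and 480 with PML-RARa (48.8% and 59.7%, where 7.39% of all were higher), and 293 were higher in all 4. Of the 664 lower transcripts 398 (59.9%) were lower in MLL-AF9, 384 (57.8%) in PML-RARa and 185 (27.9%) in NT, where 131 were at least 2-fold higher instead. These are 25.2%, 26.9% and 20.2% of the lower transcripts of those contexts, and 132 were lower in all 4. Whether the shares of the high and the low side differ was not tested. Among the examples, Gipr stood at 299.7 and 13.6 here, with log2 ratios of 1.8 in NT, -5.55 in PML-RARa and -0.44 in MLL-AF9, and Tgfb2 had 2.18 in NT, -1.72 in PML-RARa and -6.27 in MLL-AF9. Looked at from the other contexts, 384 transcripts with a mean of at least 20 were at least 2-fold lower in NT, PML-RARa and MLL-AF9 alike (beside 8.1%, 12.5% and 13.8% of all transcripts in each), and 124 of them (32.3%) were so in HOXA9, where 5.07% of all transcripts were. Of 367 that were at least 2-fold higher in those 3 contexts (beside 12.8%, 8.09% and 14.7% of all in each), 296 (80.7%) were so in HOXA9, where 8.62% of all were.

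Targets of p53 and the BCL2 family set the balance of survival. Of 17 tested p53 targets 3 were higher, beside 9.04% of all tested transcripts, and none lower, with a median log2 ratio of 0.42: Plk2, a stress-induced kinase (149 and 1079, ratio 7.26, interval 6.20 to 8.54), Zmat3 (571 and 1408) and Phlda3 (239 and 482). The call of Phlda3 ended with a pseudocount of 10 (log2 ratio 0.98) and with equal totals (0.89). Fas, a death receptor, had a ratio of 1.99 (1.64 to 2.43) and Mdm2, whose product degrades p53, 1.32 (1.23 to 1.42). The anti-apoptotic Bcl2a1b (23.2 and 166) and Bcl2a1d (6.64 and 30.8), near-identical neighbours that may share reads, were the 2 higher genes of 15 in the BCL2 family. None was lower, and the shares over all tested transcripts were 9.04% higher and 6.1% lower.

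Cholesterol synthesis genes lay below equality in 19 of 20 tested members, with a median log2 ratio of -0.43. Of them 2 were at least 2-fold lower, beside 6.1% of all tested transcripts, Fdps (124 and 41.6, ratio 0.337, interval 0.236 to 0.471) and Acat2 (446 and 192, ratio 0.430, interval 0.365 to 0.505), and none higher. The median of this list was also below 0 in NT (-0.40), PML-RARa (-0.33) and MLL-AF9 (-0.42). Of 14 genes of amino acid stress and serine synthesis, Slc7a11, the cystine transporter (149 and 714, ratio 4.78, interval 4.06 to 5.65), was higher and none was lower. Over all tested transcripts 9.04% were higher and 6.1% lower. Asns had a ratio of 0.875 (0.798 to 0.961), and Phgdh, the entry enzyme of serine synthesis, had log2 ratios of 0.15 here and of -0.83 in NT, -0.76 in PML-RARa and -0.44 in MLL-AF9.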

How the data were processed

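The study sequenced mRNA of 8 libraries (4 contexts, each labelled Ring1b WT or Ring1b KO, 1 library per group), prepared with a kit that does not mark strand. Per the submitters' processing notes, reads were aligned to mm9 with TopHat and normalised with DESeq. No version, read counter or annotation is given in the sources used here. Each of the 4 deposited tables lists 19353 RefSeq transcripts. Per the file headers, the authors gave the normalised count of each library (a signal scaled by size factors), a fold change (ratio), its log2 value and a p-value from 1 library against 1. The deposited fold changes, log2 values and p-values were not used. The table of untransduced cells heads its columns Empty and was mapped to NT by the name of the table. All deposited values were whole multiples of 1 read (100% within a tolerance of 0.02), and the recovered reads per library ran from 4226751 to 6998223. 35 gene symbols that had been turned into dates were restored, and 19076 transcripts matched RefSeq.

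The log2 ratio of KO-labelled over WT-labelled value + 1 was computed for transcripts with at least 20 in the higher library, and a 2-fold difference was called. Intervals are exact Clopper-Pearson 95% intervals on recovered reads (Python 3.11.15, scipy 1.17.1). HOXA9 was compared with the other 3 contexts by limma 3.58.1 on the 4 ratios of each transcript with a mean of at least 20, with Benjamini-Hochberg adjustment over 10599 transcripts (R 4.3.3), and by edgeR 4.0.16 and DESeq2 1.42.0 on recovered reads as alternatives. Other alternatives were the pseudocount, scaling, centring, the filter, summing over a symbol, leaving out deeply covered transcripts and, chosen after seeing the data, leaving out transcripts at 1 read.

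The genes named are the 15 on each side whose interval lies farthest from 1, at least 4 members of each list with the largest ratios, the 10 smallest p in each direction of the contexts test and the label checks. Other members were named for their known roles, after their values were seen. The members and all lists were chosen with earlier results of these data known. Tested on simulated data of 10599 transcripts, the limma fit recovered 45% of 4-fold and 100% of 16-fold changes. Apart from the planted changes, that simulation gave each transcript the same mean in all contexts and all transcripts the same spread. In the real data the ratios also differed among the other contexts. These shares therefore do not say which changes the real test could have missed. In a simulation of counting error over 10884 transcripts, the intervals covered the true ratio in 95.7% and 2-fold calls recovered 95.5% of 4-fold changes. Some genes that these rules pick are not reported here. Promoters are those of RefSeq, build GRCm38.p6.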

Additional observations from a re-analysis of the deposited data

How the results depend on the processing

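With another pseudocount, with both other scalings and with transcripts summed over a symbol, all 15 named genes on each side kept their direction and their 2-fold call, and over all alternatives the list medians lay between 2.29 and 2.52 for interferon genes, 2.10 and 3.63 for macrophage genes and -0.72 and -0.53 for mitosis genes. The counts of higher and lower transcripts were 1790 and 1243 with no filter on low values, 842 and 472 with a pseudocount of 10, 741 and 448 with at least 50 in the higher library, and 855 and 632 without transcripts over 0.5 reads per base. Scaling by total recovered reads gave median log2 ratios of -0.29 for PRC2 subunits, -0.56 for stem and progenitor genes, 0.38 for lysosome genes, -0.42 for neutrophil genes, 0.31 for cytokine receptors, -0.45 for DNA replication genes and -0.17 for ribosome biogenesis genes. With no filter, the medians of developmental transcription factors, of eosinophil genes and of T and NK cell genes turned to 0.0577, and those of megakaryocyte genes, B cell genes and cytokine receptors were 0.40, 0.0683 and 0.25, since that setting adds members near 1 read. Without transcripts over 0.5 reads per base, neutrophil genes turned to 1.28, and the medians were -0.61 for stem and progenitor genes, 2.38 for antigen presentation, 1.73 for mast cell genes, 1.72 for megakaryocyte genes, 0.28 for cytokine receptors, -0.17 for DNA replication genes, 0.64 for p53 targets and -0.61 for cholesterol synthesis genes. These lists lose members there, and the cause was not tested further. With at least 50 in the higher library eosinophil genes were at -1.07 and cytokine receptors at 0.52. The 2 B cell genes had a median of 1.81 with a pseudocount of 10 and of -0.23 without transcripts at 1 read, an alternative chosen after seeing the data, which leaves 1 gene. In the test against the other contexts DESeq2 called 1 transcript lower and every other setting called 0. Leaving out each context in turn gave from 0 to 0 calls in either direction. The labels give no replicate numbers, and the pairs of the test against the other contexts are the contexts themselves. Depth limits low transcripts most: 15.3% of entries in the WT-labelled and 15.1% in the KO-labelled library are at 1 read, and ratios of such entries have wide intervals.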

Other observations

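Transcripts were also ranked by absolute difference in normalised read count, a choice made after the values were seen. Such a ranking favours genes of high level. The high side was led by Lrp1, a large endocytic receptor. It stood at 918 in the WT-labelled library and 8549 in the KO-labelled library, a ratio of 9.31 (8.75 to 9.92). Mrc1 and Lpl, described above, came next, followed by Mpeg1, the macrophage perforin (1041 and 4629), and Slfn5, a Schlafen family gene (147 and 3667, ratio 24.95, interval 21.5 to 29.2). Gpnmb, a glycoprotein of macrophages and pigment cells, stood at 954 and 4228, and the semaphorin receptor Plxna1 at 842 and 3949. The cytoskeletal genes Ahnak (2222 and 5339) and Flna (4477 and 7520) also added many reads, the latter at a ratio under 2-fold. On the low side the largest differences were Tgm2, a transglutaminase (3769 and 1783), the glucose transporter Slc2a3 (3558 and 1711), Tex2 (3059 and 1218) and Ero1l, an oxidase of the endoplasmic reticulum (4589 and 2755). Aldh1a3, which makes retinoic acid, stood at 1880 and 319, with a ratio of 0.169 (0.151 to 0.190), and had log2 ratios of 0.47 in NT, 1.68 in PML-RARa and -1.72 in MLL-AF9. Fasn, the fatty acid synthase (4640 and 3238), and Scd2, a fatty acid desaturase (4959 and 3479), had ratios of 0.698 and 0.702.

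Higher genes often had a higher neighbour in RefSeq gene order. Of 946 higher genes placed on the map 280 (29.6%) had an adjacent tested gene that was also higher, beside 16.6% of all 10528 placed genes. For lower genes it was 105 of 620 (16.9%), beside 11.3%. There were 30 runs of at least 3 adjacent tested genes on the high side and 9 on the low side. The longest were 7 genes from AW112010 through the Ms4a family to Ms4a6d, with log2 ratios from 1.52 to 5.84, and 7 from Pyhin1 to Ifi205, a cluster of interferon-inducible DNA-binding proteins, from 1.75 to 6.12. A run of 6, Ch25h, Lipa, Ifit2, Ifit3, I830012O16Rik and Ifit1, spanned 1.69 to 7.36. The chemokine runs were Ccl2, Ccl7, Ccl12 and Ccl8, from 3.87 to 7.94, and Ppbp, Pf4, Cxcl3 and Cxcl2, from 2.46 to 3.32. On the low side Bpifc, Fbxo7, Syn3, Timp3 and 1810014B01Rik formed a run from -4.95 to -1.03. Members of the Ms4a and Pyhin runs are close relatives, among which reads may be split, and overlapping genes share reads in libraries without strand.

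The median transcript length was 3091 bases on the high side, 2549 on the low side and 2848 over all tested transcripts with a length. Whether these lengths differ was not tested. Between contexts, 15.1% of the tested transcripts were at least 2-fold apart in the HOXA9 pair, 20.7% in NT, 20.5% in PML-RARa and 29.1% in MLL-AF9.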
